A study of Mus musculus with 26 samples.

Results

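Counts of 10 genes were followed across the sorted cells of naive WT and ACKR2-/- mice: the cytokines Il1a, Il1b, Il1rn, Il18, Tnf, Il6, Il10 and Il27, together with Acod1 and Slpi. These are 10 of the 50104 gene identifiers that the tables of the 3 cell types have in common. They were picked by name, with their differences between WT and ACKR2-/- small peritoneal macrophages (SPMs) already known, so their values in that comparison are given as a description without a test. The other comparisons were tested across all genes. ACKR2 is an atypical receptor that takes up inflammatory chemokines without the signalling of a typical chemokine receptor.

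RNA was sequenced from 26 samples: bone marrow monocytes (4 WT and 4 ACKR2-/-), SPMs from peritoneal lavage (4 and 4) and MHCII negative macrophages from lung (5 and 5). All mice were female and naive, aged 8 to 10 weeks unless the methods say otherwise. The WT mice were C57BL/6J animals that had been purchased, and the ACKR2-/- mice lacked the gene in every cell and came from a separate colony, so that genotype and colony cannot be told apart. Each monocyte and SPM sample held sorted cells of 5 mice, and the number of mice behind a lung sample was not given in the sources used here, so that p-values measure the spread between these samples. Lungs were digested with enzymes for 45 min at 37 °C before sorting, whereas lavage and flushed marrow were not.

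IL-1α and IL-1β are ligands of the same receptor. Il1rn encodes a protein that occupies this receptor without signalling, and IL-1β and IL-18 are made as precursors that caspase-1 cleaves. TNF and IL-6 are early products of macrophages that sense microbes, IL-10 restrains such cells, and Il27 encodes the p28 subunit that pairs with EBI3 to form IL-27. Acod1 encodes the mitochondrial enzyme that makes itaconate from cis-aconitate in activated macrophages, and Slpi encodes a secreted inhibitor of neutrophil serine proteases.

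Acod1 and Slpi lie apart in the genome (GRCm38: Acod1 on chromosome 14, 103046977 to 103056573, plus strand, and Slpi on chromosome 2, 164354070 to 164389095, minus strand), while Il1b (chromosome 2, 129364570 to 129371139, minus strand) lies near Il1a. The promoters of these genes, 250 bases before the start site to 50 bases after it, are shown because their counts were highest in the same SPM samples below. They are RefSeq sequences on GRCm38.p6, written on the strand of the gene, with capitals for the letters TATAAA, the TATA box. They cover chr14:103046762-103047061 on the plus strand (Acod1), chr2:164356458-164356757 on the minus strand (Slpi) and chr2:129371090-129371389 on the minus strand (Il1b).
Acod1: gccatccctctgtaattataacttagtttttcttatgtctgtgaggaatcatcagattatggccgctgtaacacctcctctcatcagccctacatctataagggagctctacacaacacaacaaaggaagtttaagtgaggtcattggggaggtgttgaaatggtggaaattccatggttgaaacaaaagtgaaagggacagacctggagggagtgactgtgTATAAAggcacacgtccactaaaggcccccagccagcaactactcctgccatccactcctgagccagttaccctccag
Slpi: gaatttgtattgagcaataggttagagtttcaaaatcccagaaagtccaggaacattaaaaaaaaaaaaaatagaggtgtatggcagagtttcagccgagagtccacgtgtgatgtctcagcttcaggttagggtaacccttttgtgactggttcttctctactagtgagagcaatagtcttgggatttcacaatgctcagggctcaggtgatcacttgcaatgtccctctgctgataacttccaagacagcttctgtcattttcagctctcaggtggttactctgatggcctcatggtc
Il1b: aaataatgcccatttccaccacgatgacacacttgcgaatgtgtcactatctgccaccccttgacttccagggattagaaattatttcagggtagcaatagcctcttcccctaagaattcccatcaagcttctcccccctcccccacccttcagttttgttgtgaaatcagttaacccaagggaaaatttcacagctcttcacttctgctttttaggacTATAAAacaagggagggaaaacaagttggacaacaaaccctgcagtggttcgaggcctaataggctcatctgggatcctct
The RefSeq start of Slpi lies inside the longer gene span given above. TATAAA stood 28 bases before the start of Acod1 and 31 bases before that of Il1b, and also 32 and 29 bases before the starts of Il1a and Tnf. It was searched on the strand of the gene only, where 8.32% of 32851 promoters of this length held it, and the Slpi window did not. On either strand, the kB motif GGGA, any 2 bases, TTCC stood 44 bases before the Il6 start and TGANTCA (an AP-1 motif) 249 bases before it, and TGANTCA also stood 12 bases before the Il1a start and 141 bases before the first Il1rn start. These letters occurred in 1.47% and 7.81% of all promoters. The IRF motif GAAA, any 2 bases, GAAA, found in 3.44% of promoters, was in none of the 8 genes that had an entry. Il10 and Il27 had no entry in the promoter table.

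Libraries held 15450670 to 19218213 counts in monocytes, 12781144 to 35400034 in SPMs and 19950019 to 29770252 in lung macrophages, so that a gene with 0 reads could still have been present at up to 0.0847 to 0.235 counts-per-million of the unscaled library total, by the limit of 3 counts per library and for counting error only. All CPM (counts-per-million) values given for genes are scaled by TMM. Ackr2 had 5 to 9 reads in each WT SPM sample and 0 in the ACKR2-/- SPM samples. In monocytes it had 2 reads in 1 WT sample and 0 in the rest, which checks no label. In lung it had 469, 436, 150, 372 and 0 reads in the libraries labelled WT 1 to 5. The ACKR2-/- lung samples had 7 to 50 reads. The library labelled WT 5 thus had fewer Ackr2 reads than any other lung library, which leaves its label in doubt but does not settle it. The library labelled WT 3 held the MHC class II gene H2-Ab1 at 21200 CPM, against 253 to 1710 CPM in the other lung libraries of cells sorted as MHCII negative. Lung results are therefore also given without these libraries. The 6 lung epithelial markers summed to 416 CPM in the library labelled WT 5 and 252 CPM in ACKR2-/- 4, and to 6110 to 18900 CPM in the other 8. ACKR2-/- 4 had 7 Ackr2 reads, as did ACKR2-/- 5, and the part of epithelial cells in the Ackr2 reads was not tested.

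SPMs of ACKR2-/- mice had higher mean counts of Acod1, Il27 and Slpi than WT SPMs, and these means rested largely on ACKR2-/- samples 1 and 4. Acod1 was at 0.671, 0.620, 0.528 and 0.998 CPM in WT samples 1 to 4, and at 45.5, 0.587, 0.824 and 75.1 CPM in ACKR2-/- samples 1 to 4. Samples 2 and 3 therefore lay inside the WT range, and samples 1 and 4 stood at 64.6 and 107 times the WT mean. Of all Acod1 reads in the ACKR2-/- SPM samples, 98.8% came from samples 1 and 4. The log2 fold change was 5.39 (SE 1.38, n = 4 per genotype) with every sample and -0.01 without samples 1 and 4.

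Il27 was the other gene with a low, even WT level. It was at 0.671, 0.671, 0.352 and 0.480 CPM in WT SPMs and at 8.20, 0.697, 1.08 and 7.38 CPM in ACKR2-/- SPMs. Samples 1 and 4 were again far above the rest, and here samples 2 and 3 were also just above every WT sample, so the genotypes did not overlap, as was so for 1.8% of all genes in this direction. Its log2 fold change was 2.96 (SE 0.77) with all samples and 0.69 without samples 1 and 4. Il27 overlaps Apobr on the opposite strand, and use of the strand in counting was not stated in the sources used here. Apobr was at 8.70 and 10.1 CPM in samples 1 and 4, within the 6.16 to 20.0 CPM of all SPM samples.

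Slpi had the highest level of the 10 genes in SPMs. It was at 108, 504, 1036 and 638 CPM in WT samples and at 6069, 1984, 931 and 3252 CPM in ACKR2-/- samples. The order of samples was the same as for Acod1 only in part: samples 1 and 4 were highest, sample 2 was also above every WT sample, and sample 3 was inside the WT range. The log2 fold change was 2.42 (SE 0.67) with all samples, 1.35 without samples 1 and 4, and 2.08 without WT sample 1, the lowest. Slpi thus kept a higher mean than WT when samples 1 and 4 were left out, which Acod1 did not.

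Il1b showed the pattern at a smaller size. It was at 10.4, 18.5, 23.9 and 16.7 CPM in WT SPMs and at 46.9, 18.7, 20.9 and 40.3 CPM in ACKR2-/- SPMs. Samples 1 and 4 lay above all 6 others, and samples 2 and 3 lay inside the WT range. Il1b overlaps Il1bos on the opposite strand, which was at no more than 0.88 CPM in SPMs. With all samples the log2 fold change was 0.87 (SE 0.35), and it was 0.19 without samples 1 and 4.

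The other genes followed samples 1 and 4 weakly or not at all. Il1a was at 0.403 to 1.94 CPM in ACKR2-/- SPMs against 0.0958 to 0.967 CPM in WT, with sample 4 highest and sample 3 above sample 1. The difference of 1.38 on the log2 scale (SE 0.64) became 0.75 without samples 1 and 4. Il1rn was at 11.1 to 13.8 CPM in ACKR2-/- SPMs and 3.98 to 11.9 CPM in WT, a spread set by WT sample 1. Tnf (0.843 to 1.78 CPM against 0.335 to 1.32), Il6 (0.843 to 2.88 against 1.01 to 2.29) and Il18 (39.6 to 55.2 against 24.2 to 54.7) overlapped widely between the genotypes. Il10 had 2, 1, 2 and 13 reads in ACKR2-/- samples and 0, 4, 0 and 1 in WT samples, too few to pass the filter on low counts. WT sample 1 was the lowest WT sample for Il1a, Il1b, Il1rn, Il18, Tnf, Il6 and Slpi, though not for Acod1 or Il27.

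**Figure D1:**
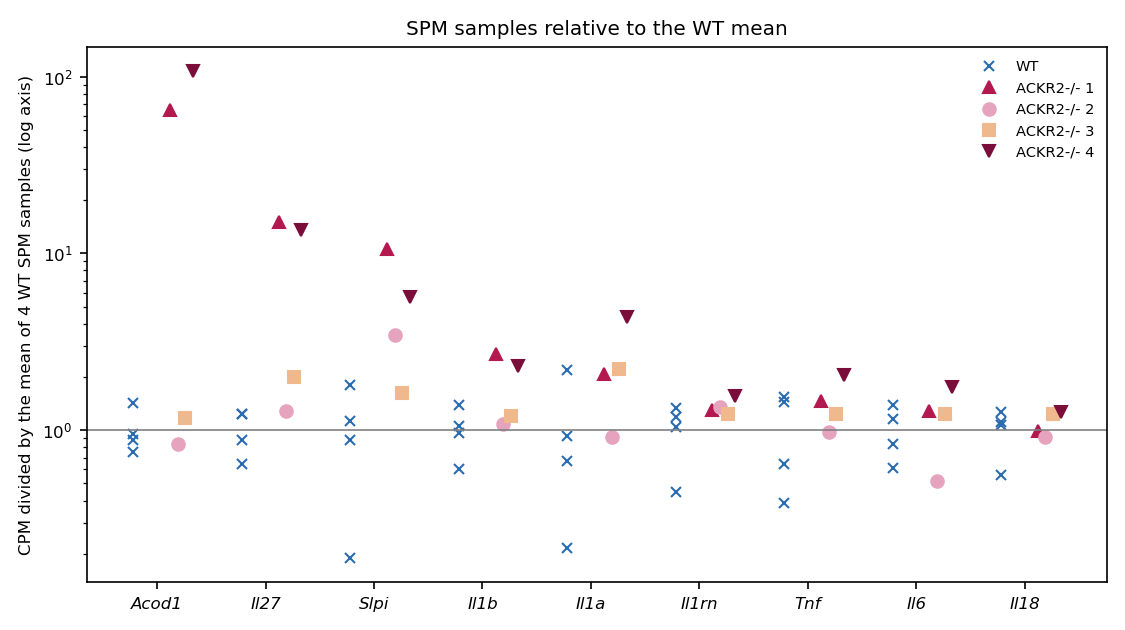
CPM of 9 genes in each SPM sample divided by the mean of the 4 WT samples, on a log axis, with WT samples as crosses and the ACKR2-/- samples by number. For Acod1, ACKR2-/- samples 1 and 4 stand at 64.6 and 107 times the WT mean and samples 2 and 3 at 0.833 and 1.17, and for Slpi sample 2 also lies above the WT samples at 3.47.

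Samples 1 and 4 were both above the other 6 SPM samples for 4 of the 10 genes (Acod1, Il27, Il1b and Slpi), where 7.06% of all tested genes had that order. By the quasi-likelihood test of edgeR, 0 of the 9 genes that passed the filter on low counts were called, that is, passed both an adjusted p of 0.05 and a log2 fold change of 0.5 in size, and 0.0462% of all genes were called. DESeq2 called 3 of them, Acod1, Il27 and Slpi, with 0.153% of all genes called, and edgeR without the filter called the same genes, with 0.207% called. Since these genes were picked on this comparison, nothing is read from these counts. The median log2 fold change of the 9 genes was 0.868 and that of all genes -0.0515.

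Among 7202 genes with a mean of at least 5 CPM in SPMs, the 5 whose log2 CPM was most like that of Acod1 over the 8 SPM samples were I830127L07Rik (r = 0.995), Aoah (0.992), Lrmda (0.991), Fpr2 (0.990) and H2-T22 (0.990). I830127L07Rik was at 812 and 927 CPM in ACKR2-/- samples 1 and 4, at 1.80 and 2.47 CPM in samples 2 and 3 and at a mean of 1.31 CPM in WT. Fpr2, a receptor for formyl peptides, was at 56.8 and 61.4 CPM in samples 1 and 4. It was at 2.24 and 2.40 CPM in ACKR2-/- samples 2 and 3 and at a mean of 3.55 CPM in WT. Ldhb (r = 0.991), Mul1 (0.962) and Mcemp1 (0.960) were most like Slpi. Between the 10 genes themselves, r was 0.982 for Acod1 with Il27, 0.923 for Il1b with Slpi, and 0.709 for Acod1 with Slpi (8 samples that share their libraries and depth).

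Of 25 tested receptors, processing enzymes and response genes of these cytokines, 11 (44%) had both samples 1 and 4 above the other 6, where 7.06% of all tested genes had that order, and the other 14 did not. Il18bp, which binds IL-18 and keeps it from its receptor, was at 96.0 and 112 CPM there and at no more than 18.1 CPM in the other samples. Clec4e, a receptor for mycobacterial glycolipid, was at 115 and 136 CPM against at most 37.4 CPM. The list also held Casp1, Casp4, Pycard and Gsdmd, whose products form or follow the inflammasome, with Casp4 at 31.0 and 40.9 CPM against at most 12.3 CPM. Between genotypes 0 of the 25 were called by edgeR, and 4 had an unadjusted p under 0.05, where 5.46% of all tested genes had one. These were Il18bp (log2 fold change 2.09), Clec4e (1.58), Socs3 (1.21) and Il6st (-0.84), each with adjusted p = 0.788 by edgeR. The 25 genes were chosen with earlier results of these data known, so nothing is read from the 44% or from these p-values. Ebi3, the partner of the IL-27 subunit, was at 32.0 and 24.7 CPM in samples 1 and 4 and at 10.0 to 19.4 CPM in the others.

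Several marker lists also differed in samples 1 and 4. The 6 markers of SPMs summed to 60100 and 47500 CPM in these samples, but also to 61400 CPM in ACKR2-/- sample 3, and all 4 ACKR2-/- samples (47500 to 89700 CPM) were below all WT samples (96000 to 117000 CPM). Retnla was at 23100, 55400, 36300 and 19000 CPM in ACKR2-/- samples 1 to 4 against 59500 to 85700 CPM in WT. Of 6 monocyte markers, Ly6c2 (380 and 707 CPM against 16.8 to 56.6 in WT), Plac8 and Chil3 were higher in both than in all others, whereas Ccr2 and F13a1 were lower. The 7 markers of alveolar macrophages summed to 455 and 416 CPM against 18.0 to 66.8 CPM, through Marco and Chil3, with their defining marker Siglecf at 0.536 and 0.404 CPM, inside the WT range. Large peritoneal macrophage markers summed to 1160 and 1380 CPM against 265 to 650 CPM, mostly through Icam2, with Gata6 at 2.84 and 3.72 CPM against 0.929 to 2.49 CPM in WT. Neutrophil markers summed to 94.5 and 184 CPM against 37.1 to 111 CPM, and immediate early and stress genes to 394 and 350 CPM against 203 to 320 CPM. The part of these cells in the values of Acod1, Il27, Slpi and Il1b was not tested. In bulk RNA, fewer cells of a type and less RNA per cell cannot be told apart. WT sample 1 also stood apart from WT 2 to 4. Mast cell or basophil markers summed to 330 CPM in it against 1971 to 3900 CPM. Dendritic cell markers summed to 154 against 789 to 1231 CPM, and B cell markers to 168 against 383 to 549 CPM. Monocyte markers were higher, at 2592 against 1130 to 1324 CPM. The part of these cells in the values of WT sample 1 was not tested.

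In lung macrophages the pattern of SPMs was not seen, and Il10 and Tnf were the genes with the most separated groups, both lower in ACKR2-/- samples. Il10 was at 17.1, 17.7, 23.5, 16.3 and 8.71 CPM in the libraries labelled WT 1 to 5 and at 9.03, 10.2, 9.67, 3.34 and 5.21 CPM in ACKR2-/- 1 to 5. Only the library labelled WT 5, the one without Ackr2 reads, lay within the ACKR2-/- range. The log2 fold change was -1.15 (SE 0.35, n = 5 per genotype) with edgeR's unadjusted p = 0.0067 and adjusted p = 0.9999 over all genes, and an exact two-sided permutation test of the CPM gave p = 0.0317. Without the library labelled WT 5 the groups did not overlap (exact permutation p = 0.00794, the smallest possible with 4 against 5). This was so for 0.898% of all genes in this direction. Leaving out the only WT library within the ACKR2-/- range fixed this outcome in advance, so nothing is read from that p. Without the library labelled WT 3 the exact permutation p was 0.0397. Il10 lies on chromosome 1 (131019845 to 131024974, plus strand), within 0.613 to 3.27 Mb of Ctse, Rab7b, Btg2, Chil1 and Ppfia4, which are 5 of the 6 genes called between the genotypes in SPMs. The part of this stretch of the chromosome in the Il10 values was not tested.

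Tnf was at 145, 143, 320, 148 and 79.8 CPM in the libraries labelled WT 1 to 5 and at 121, 68.7, 116, 51.4 and 35.4 CPM in ACKR2-/- samples. The library labelled WT 3, with the MHC class II signal, was the highest, and the library labelled WT 5 was again the WT library inside the ACKR2-/- range. The log2 fold change was -1.09 (SE 0.41) with edgeR's unadjusted p = 0.0211 and adjusted p = 0.9999, and the exact permutation test gave p = 0.0476. Without the library labelled WT 3 the log2 fold change was -0.69 and the exact permutation p 0.0873. Without both libraries in doubt it was -0.85 with an exact permutation p of 0.0357, and Il10 was at -1.15 with an exact permutation p of 0.0179, the smallest that 3 against 5 samples allow. Neither gene then overlapped between the genotypes, as was so for 2.09% of all genes in this direction. Leaving out the library labelled WT 5, the only WT library within the ACKR2-/- range for both genes, fixed this in advance. Leaving out both libraries was a choice made after seeing the data, so nothing is read from the p-values without them.

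Il1a moved with Tnf and Il10 across the lung samples. It was at 71.3, 76.9, 192, 30.4 and 26.1 CPM in the libraries labelled WT 1 to 5 and at 79.1, 25.7, 37.3, 4.51 and 6.27 CPM in ACKR2-/- samples. The library labelled WT 3 was again the highest, and ACKR2-/- 4 and 5 were the lowest of all. Its log2 fold change was -1.37 (SE 0.77) with exact permutation p = 0.167, so that the difference was within the spread of the samples. Without the library labelled WT 3 it was -0.72 (exact permutation p = 0.302), and without both libraries in doubt -0.93 (exact permutation p = 0.268). Over the 10 lung samples, which share libraries and depth, r of log2 CPM was 0.920 for Il1a with Tnf, 0.890 for Il10 with Tnf and 0.886 for Il10 with Il1a.

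**Figure D2:**
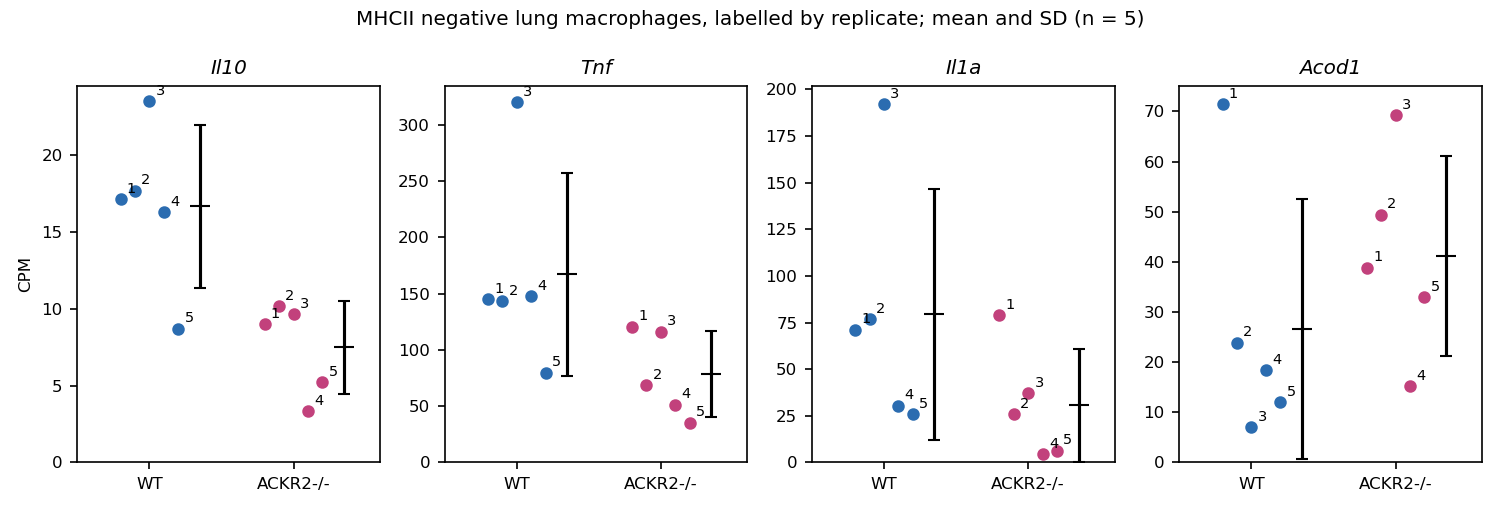
CPM of Il10, Tnf, Il1a and Acod1 in each lung macrophage library, numbered by replicate, with the mean and SD of 5 samples beside each genotype. For Il10 and Tnf the library labelled WT 5 (8.71 and 79.8 CPM) is the only WT library within the ACKR2-/- range, while Acod1 spans 6.98 to 71.5 CPM in WT and 15.2 to 69.3 CPM in ACKR2-/-.

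Acod1, so uneven in SPMs, was also uneven in lung but without a genotype to it. It was at 71.5, 23.9, 6.98, 18.4 and 12.0 CPM in WT and at 38.8, 49.4, 69.3, 15.2 and 33.0 CPM in ACKR2-/- samples. Every ACKR2-/- sample fell inside the WT range (log2 fold change 0.63, SE 0.58, exact permutation p = 0.341). The least Acod1 among ACKR2-/- samples was in sample 4, and the low WT libraries were those labelled WT 3 and WT 5. Epithelial markers summed to 252 CPM in ACKR2-/- 4, 416 CPM in the library labelled WT 5 and 9200 CPM in that labelled WT 3. Il6 was likewise lowest in ACKR2-/- 4 (6.48 CPM) and in the libraries labelled WT 5 (24.1 CPM) and WT 3 (25.1 CPM), against 34.8 to 141 CPM elsewhere, and r of log2 CPM for Acod1 with Il6 was 0.780. The part of epithelial cells in the Acod1 and Il6 values was not tested.

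Il1b was the gene with the highest level in lung, at 1227 to 3065 CPM in WT and 798 to 2749 CPM in ACKR2-/- samples (log2 fold change -0.32, SE 0.33, exact permutation p = 0.421). Slpi was at 34.9 to 68.7 CPM in WT and 23.5 to 122 CPM in ACKR2-/- samples (log2 fold change 0.40, SE 0.36, exact permutation p = 0.429). Il1rn, Il18 and Il27 differed by -0.41, -0.09 and 0.05 on the log2 scale, each inside the spread of the samples. Of the 10 genes, all tested in lung, 0 were called, as were 0% of 16824 genes by edgeR and 0.112% by DESeq2, which called 0 of the 10. An unadjusted p under 0.05 was found for 2 of the 10 genes, Il10 and Tnf, and for 2.97% of all genes. Of the 27 tested pathway genes 0 were called. Immediate early and stress genes, a list of 10, summed to 19500 to 34600 CPM in WT and 11700 to 25300 CPM in ACKR2-/- lung samples, each with a negative log2 fold change and 0 of the 10 called, and their part in the Il10 and Tnf values was not tested.

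In bone marrow monocytes the gene with separated groups was Il1b, which was lower in ACKR2-/- samples. It was at 2.34, 1.87, 4.01 and 3.41 CPM in WT and at 1.51, 1.08, 1.84 and 1.17 CPM in ACKR2-/- samples. All 4 ACKR2-/- samples lay below all WT samples, as was so for 5.25% of the genes tested. The log2 fold change was -1.05 (SE 0.32, n = 4 per genotype), and the exact permutation p of 0.0286 was the smallest that 4 against 4 can give. Over all genes the adjusted p was 0.139 with edgeR and 0.067 with DESeq2, so Il1b was not called by either. Its direction in monocytes was thus the opposite of that in SPMs, and this difference was not tested.

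Markers of neutrophils, which are known to carry Il1b, summed to 38900 to 90600 CPM in WT and 12500 to 57000 CPM in ACKR2-/- monocyte samples. The sums of 53780 and 57040 CPM in ACKR2-/- 1 and 2 were within the WT range, and those of 12470 and 20410 CPM in ACKR2-/- 3 and 4 were below it. Il1b in ACKR2-/- 1 to 4 was at 1.51, 1.08, 1.84 and 1.17 CPM. All 10 neutrophil markers were tested, 0 had a positive log2 fold change and 0 were called. The gate given for bone marrow monocytes was Ly6G negative, and the part of neutrophils in the Il1b values was not tested. T cell markers were higher in ACKR2-/- monocyte samples, with 5 of 5 called and sums of 46.0 to 81.9 CPM against 2.28 to 3.36 CPM, and their part in the values was not tested.

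Slpi was at 461, 498, 516 and 540 CPM in WT monocytes and at 411, 779, 748 and 634 CPM in ACKR2-/- monocytes. Of the ACKR2-/- samples, 3 were above every WT sample and 1 was below them all. This gave a log2 fold change of 0.35 (SE 0.19) with an exact permutation p of 0.171 and an adjusted p of 0.357 with edgeR. Il1rn was at 12.3 to 15.5 CPM in WT and at 4.79, 6.94, 15.0 and 11.2 CPM in ACKR2-/- samples (log2 fold change -0.55, SE 0.29, adjusted p = 0.354 with edgeR). Il18 (-0.35, SE 0.28), Tnf (-0.14, SE 0.25) and Il27 (-0.08, SE 0.26) overlapped between the genotypes.

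Acod1 was nearly absent from monocytes. It had 72, 4, 7 and 9 reads in WT samples and 0, 0, 9 and 0 in ACKR2-/- samples, of which only the 72 reads of WT 1 exceeded 10, and it did not pass the filter on low counts. Il10 had 0 reads in all 8 samples, and Il1a and Il6 had at most 6 and 19 reads in a sample and did not pass either. Of the 6 genes that passed, 0 were called by edgeR or DESeq2, which called 1.27% and 3.31% of all genes, and 5 of the 6 had a negative log2 fold change (median -0.245, against 0.00409 over all genes). Of 25 pathway genes tested in monocytes 0 were called, and 8 had an unadjusted p under 0.05 where 17% of all genes had one. Among them, Tnfrsf1a (-0.48), Tnfrsf1b (-0.48) and the decoy receptor Il1r2 (-0.84) had lower means in ACKR2-/- samples, with adjusted p of 0.18, 0.234 and 0.208 by edgeR. Il1rap (-0.45), Ebi3 (-0.39), Zc3h12a (-0.67) and Marcksl1 (-0.77) also had lower means. Only the IL-27 receptor chain Il27ra had a higher mean (1.57, adjusted p = 0.144 with edgeR), at a low level of 0.66 CPM in WT and 1.96 CPM in ACKR2-/- samples. The part of T cells and neutrophils in these values was not tested.

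**Figure D3:**
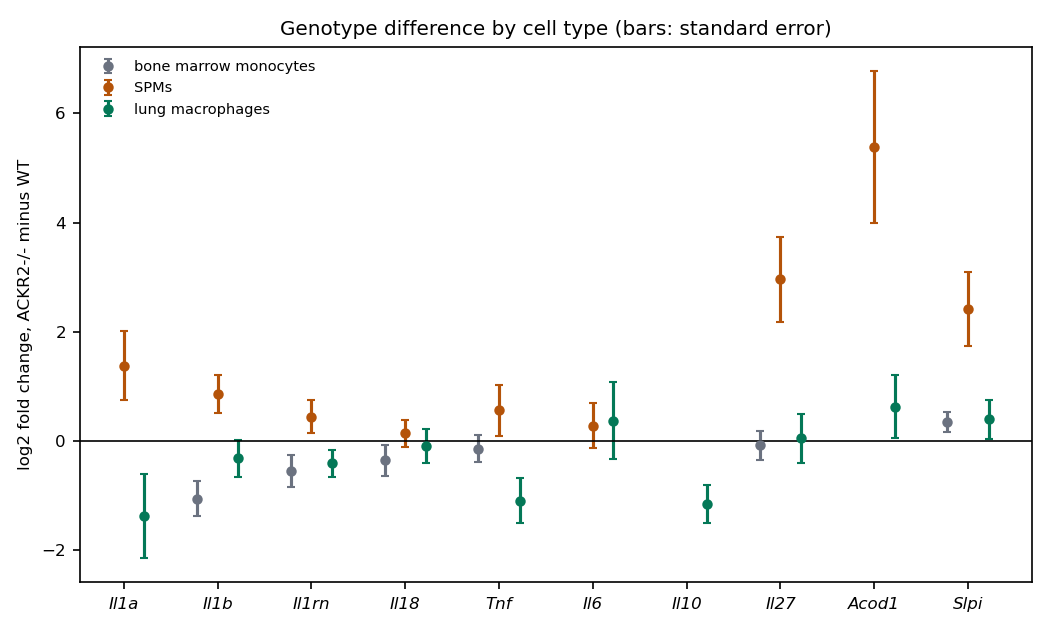
Log2 fold change of ACKR2-/- against WT with its standard error for each gene that passed the filter on low counts, by cell type. Acod1, Il27 and Slpi in SPMs lie at 5.39, 2.96 and 2.42, and the values in monocytes and lung macrophages lie between -1.37 and 0.63.

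Levels of the 10 genes were also compared between cell types. The WT samples were compared in 1 fit of all 26 samples, in which cell type, tissue preparation and counting table cannot be told apart. Against WT monocytes, WT lung macrophages had 9 of the 10 genes called higher (39.5% of all genes) and 1, Slpi, called lower (24.4%), with 63.8% of all genes called in either direction. Against WT SPMs, 8 were called higher (39.1% of all genes) and 2, Il18 and Slpi, lower (23.2%), with 62.3% called in either direction. WT SPMs against WT monocytes gave 6 called higher (21.8% of all genes), 2 called lower, Tnf and Il27 (20.1%), and 2 not called, Il1rn and Acod1, with 41.9% of all genes called.

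Il1b rose in the order monocytes, SPMs and lung macrophages. On the scale shared by all samples it was at a mean of 2.27 CPM (SD 0.77, n = 4), 30.8 CPM (SD 10.5, n = 4) and 1508 CPM (SD 524, n = 5) in WT cells, and no WT sample of one cell type reached the range of the next. The edgeR log2 fold change was 3.75 (SE 0.41, adjusted p = 5.94e-08) for SPMs over monocytes and 5.62 (SE 0.43, adjusted p = 5.95e-11) for lung macrophages over SPMs. Il6 kept the same order, at 0.338, 2.91 and 48.8 CPM, with log2 fold changes of 3.08 (SE 0.87, adjusted p = 0.00534 with edgeR) and 4.10 (SE 0.75, adjusted p = 3.83e-05).

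Tnf had another order. It was lowest in SPMs, at 1.53 CPM, against 6.43 CPM in monocytes and 128 CPM in lung macrophages, with log2 fold changes of -2.14 (SE 0.46) for SPMs over monocytes and 6.46 (SE 0.51) for lung macrophages over SPMs (edgeR, adjusted p = 0.000474 and 8.02e-11). Il27 was also lowest in WT SPMs (0.949 CPM, against 3.48 CPM in monocytes and 8.93 CPM in lung). Its difference between lung and monocytes, 1.36 (SE 0.54, adjusted p = 0.0315 with edgeR), was lost without the library labelled WT 5 in lung (1.09, adjusted p = 0.0862), without WT 4 of lung, and without WT 1, 2 or 4 of monocytes, and its lower level in SPMs than in monocytes was lost without WT SPM 3 (adjusted p = 0.0526).

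Slpi and Il18 were highest in SPMs. Slpi was at 1024 CPM (SD 687) in WT SPMs, 394 CPM (SD 30.7) in monocytes and 39.8 CPM (SD 12.3) in lung macrophages, so that it was lower in lung by 3.31 than in monocytes (SE 0.50, adjusted p = 3.53e-06 with edgeR) and by 4.68 than in SPMs (SE 0.53, adjusted p = 4.07e-08) on the log2 scale. The lead of SPMs over monocytes, 1.38 (SE 0.51, adjusted p = 0.0316), was lost when any of WT monocyte samples 1 to 4 or WT SPM 3 or 4 was left out (0.93, adjusted p = 0.17 without WT SPM 3). Il18 was at 77.1 CPM in SPMs, 27.4 CPM in lung and 14.1 CPM in monocytes, with log2 fold changes of 2.45 (SE 0.35) for SPMs over monocytes and -1.49 (SE 0.31) for lung over SPMs (edgeR, adjusted p = 2.83e-06 and 0.000216). Its lead of lung over monocytes was not called without the library labelled WT 3 (adjusted p = 0.0522).

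Il10 separated lung macrophages from the other cells. With 0 reads in monocytes and 5 reads over the 4 WT SPM samples, it was at 12.8 CPM (SD 3.85) in WT lung macrophages, which is at least 91.7-fold higher than in WT monocytes when these are set at a limit of 3 counts per library. ACKR2-/- lung macrophages were at least 46.6-fold higher than ACKR2-/- monocytes by the same limit. The call of Il10 between SPMs and monocytes (adjusted p = 0.0284 with edgeR) rested on 5 reads against 0, and no fold is given for it. It was lost without WT SPM 2, which held 4 of the reads, and without WT monocyte 3 or 4 (adjusted p = 0.0518 and 0.0515 with edgeR). Il1a was at 60.9 CPM in WT lung, 0.789 CPM in SPMs and 0.0604 CPM, or 5 reads in all, in monocytes. Its call between SPMs and monocytes (adjusted p = 0.0415 with edgeR) was lost when any of WT monocyte samples 1 to 4 or WT SPM 2, 3 or 4 was left out (adjusted p = 0.136 without WT SPM 3). Acod1 was at 21.1 CPM in WT lung, 1.24 CPM in SPMs and 1.12 CPM in monocytes, where WT 1 alone held 72 of 92 reads. On this scale Acod1 was at 81.8 and 139 CPM in ACKR2-/- SPM samples 1 and 4, above the 5.20 to 59.0 CPM of the lung samples of both genotypes. Il1rn was at 82.2, 15.9 and 10.9 CPM, and its lead of SPMs over monocytes was called only without WT SPM 1 (0.81, adjusted p = 0.0317 with edgeR, against 0.192 with all samples).

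**Figure D4:**
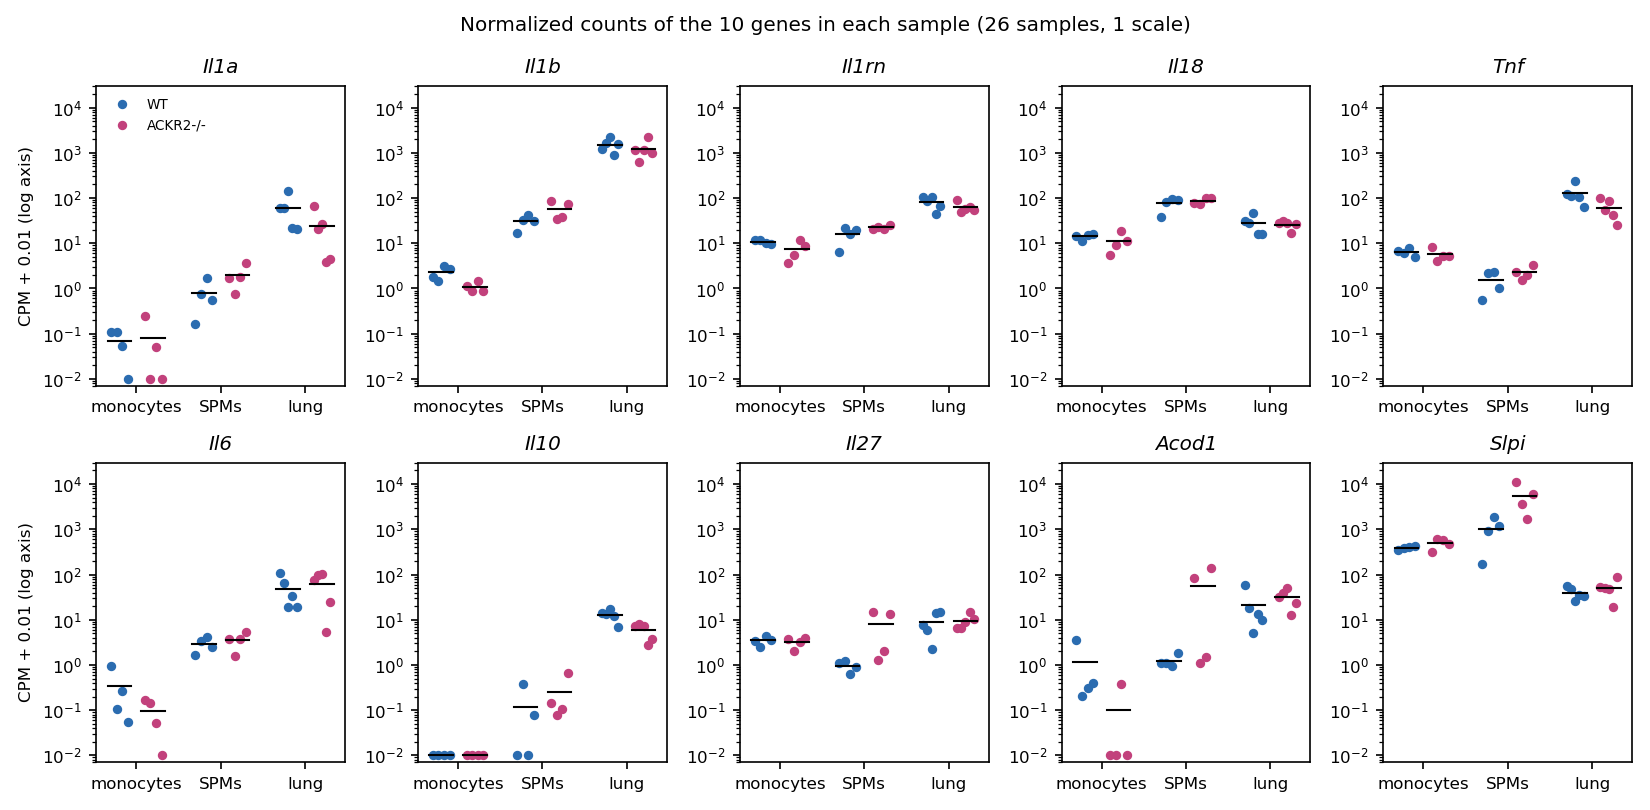
CPM plus 0.01 of the 10 genes in each of the 26 samples on a log axis, normalized together, with a bar at the mean of each group. Il1b climbs from monocytes to SPMs to lung macrophages, Il10 is at 0 reads in every monocyte sample, and ACKR2-/- SPM samples 1 and 4 stand apart for Acod1 and Il27.

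Levels of the genes against each other were compared per length, as RPKM, the CPM on the shared scale divided by the length of the gene in kilobases. In WT monocytes Slpi stood at 334 RPKM (SD 25.98), far above Il18 at 13.7 (SD 1.96), and Tnf (3.92, SD 0.80) and Il27 (3.41, SD 0.76) did not differ beyond their spread. In WT SPMs Slpi stood at 868 RPKM (SD 582), followed by Il18 at 74.8 (SD 25.2), Il1b at 16.2 (SD 5.53) and Il1rn at 2.88 (SD 1.21), with Il6, Tnf and Il27 at 1.20, 0.934 and 0.930 RPKM, within the spread of each other. In WT lung Il1b led at 791 RPKM (SD 275), Tnf followed at 78.2 (SD 39.9), and Slpi (33.8, SD 10.4), Il1a (30.8, SD 25.2), Il18 (26.6, SD 12.1) and Il6 (20.1, SD 15.5) overlapped. Acod1 was last there at 8.06 RPKM (SD 8.28), not separable from Il10 at 9.81 (SD 2.94) and Il27 at 8.75 (SD 5.29).

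In lung against monocytes, 16 of 27 pathway genes were called higher and 2 lower, where 39.5% and 24.4% of all genes were, and 7 of 7 tested response genes were higher, led by Socs3 (8.04, SE 0.46), a feedback inhibitor of cytokine receptors, and Ptgs2 (6.99, SE 0.92), the inducible cyclooxygenase. Il10ra was higher (2.60, SE 0.30) and Il10rb lower (-2.72, SE 0.34), although both are chains of the IL-10 receptor. In SPMs against monocytes 6 of 27 were called higher, near the 21.8% of all genes, and 10 lower, where 20.1% of all genes were, among them the IL-27 receptor chain Il27ra (5.60, SE 0.48) and the inflammasome sensor Nlrp3 (-3.29, SE 0.40). Immediate early and stress genes summed to 11700 to 34600 CPM in lung, 634 to 3850 CPM in monocytes and 203 to 394 CPM in SPMs, on the scale of each table, and their part in the lung levels of the cytokines was not tested.

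The genotype difference in lung macrophages minus that in monocytes was fitted for all 10 genes, and 0 were called by edgeR, where 0.152% of all genes were called. Il10, with 0 reads in monocytes, could not have been called. Il1a, Il6 and Acod1 had too few monocyte reads to pass the filter there, so nothing is read from their fits. Acod1 had the lowest p of the 10 (log2 difference 4.08, SE 1.78, unadjusted p = 0.0304, adjusted p = 0.76), with its few monocyte reads. Tnf (-0.89, SE 0.53) and Il1b (0.79, SE 0.52) had adjusted p of 0.876 and 0.909. Whether the Il10 difference was particular to lung could not be tested, since monocytes had 0 reads.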

How the data were processed

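RNA was taken from sorted cells with a column kit, amplified by the SMARTer method and sequenced as paired-end reads by Novogene. For each cell type the authors deposited a table of unnormalized read counts per gene. Submitters' processing notes name HISAT2 2.0.5, featureCounts 1.5.0-p3, DESeq2 and mm10 with no role, and whether strand was used in counting is not stated there. The lung table, which has no symbols, was joined by gene identifier, and its lines of unassigned reads (56.3% of its total) were dropped.

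Testing of the deposited counts used edgeR 4.0.16 (R 4.3.3): filterByExpr (minimum count 10, minimum total 15), TMM scaling and the quasi-likelihood test with Benjamini-Hochberg adjustment over all tested genes, for each cell type on its own and in 1 fit of 26 samples for comparisons of cell types. SE is the absolute log2 fold change divided by the root of F. DESeq2 1.42.0 was an alternative. Scripts were tested on simulated data. The log2 CPM used for likeness had 1 added. Columns left unmapped numbered 0. Over 44 pairs of replicates, 0 were identical, and the smallest chi-square per degree of freedom was 10.6.

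The 10 genes and all gene lists were chosen with earlier results of these data known, and genes were named by role or, beside Acod1 and Slpi, as the 5 nearest by r. Genes that share a locus may share reads. Intervals and floors cover counting error only, since PCR copies cannot be told apart. Same-numbered samples deviated together (r over 0.1) in some pairs only, 2 of 4 in monocytes (r of -0.135 to 0.372), 0 of 4 in SPMs (-0.123 to -0.00895) and 2 of 5 in lung (-0.0993 to 0.689), so numbers were not treated as pairs.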

Additional observations from a re-analysis of the deposited data

Results flagged for a closer look

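Within groups of 4 or 5 samples, 1 sample stood far from the others by Dixon's test for 6 of 58 gene and group combinations, and chance flags about 1 in 20 groups. Acod1 was flagged in 3 of them: the WT monocyte sample 1 was at 4.69 CPM (72 reads, next highest 0.503 CPM), the ACKR2-/- monocyte sample 3 at 0.474 CPM (9 reads, the others at 0), and the lung library labelled WT 1 at 71.5 CPM (next highest 23.9 CPM). Tnf was at 320 CPM in the lung library labelled WT 3, with the next WT library at 148 CPM. Il10 in ACKR2-/- SPM sample 4 was at 0.35 CPM on 13 reads, and Il1a in ACKR2-/- monocyte sample 1 was at 0.323 CPM on 6 reads. The high Acod1 and Il27 values of ACKR2-/- SPM samples 1 and 4 were not flagged, since 2 high samples of 4 leave no single sample apart.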

How the results depend on the processing

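In monocytes and lung macrophages 0 of the 10 genes were called under any alternative (DESeq2, other size factors, no filter or a filter at 1 CPM, the replicate block, each sample left out). In SPMs DESeq2 called 3 of them and the absence of a filter 3. For pathway genes in monocytes, the fit with the replicate block called 1, and leaving out single samples gave 0 to 1. Same-numbered samples were not shown to be pairs, and in no cell type did every sample correlate best with its own number. The replicate block also turned the Slpi difference of lung minus monocytes to -0.048, and took the call from Il27 in lung against monocytes (adjusted p = 0.0879 with edgeR).

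Leaving out single samples gave 5 to 9 called genes in WT SPMs against monocytes (5 without WT monocyte 3 or 4 or WT SPM 3), 9 to 10 in lung against monocytes and 10 in lung against SPMs. It also moved some log2 fold changes across 0. Their ranges are given over all alternatives, with the libraries left out together among them. These were Il27 and Tnf in monocytes (-0.197 to 0.102, and -0.40 to 0.00415) and Il27 and Il18 in lung (-0.166 to 0.341, and -0.226 to 0.234). Il18 in SPMs (-0.0564 without WT SPM 1, to 0.273) and Acod1 in SPMs against monocytes (-0.152 to 2.05) crossed 0 too. For lung minus monocytes the ranges were -0.249 to 0.281 for Slpi, -2.41 to 0.387 for Il1a, -0.0547 to 0.494 for Il1rn and -0.081 to 0.431 for Il27. Without ACKR2-/- SPM samples 1 and 4 together, Il6 in SPMs was at -0.166. Without the lung libraries labelled WT 3 and WT 5 together, a choice made after seeing the data, Il1b was at 0.032, Il6 at -0.091 and Il18 at 0.10. The cause of these moves was not tested. Genes with few reads (Il10, Il1a, Il6 and Acod1 in monocytes, Il10 in SPMs) allow no genotype comparison at this depth.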
